A study of Mus musculus with 21 samples.

Results

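The genes described here are 10 tubulin genes of the mouse, Tuba1a, Tuba1b, Tuba1c, Tuba3a, Tuba3b, Tuba4a, Tubb4b, Tubb5, Tubb2a and Tubb6. They were taken by name from a fixed list and are 10 of the 10917 genes that have a transcript in the merged long-read annotation. The study sequenced full-length cDNA of mouse sperm, oocytes and preimplantation embryos with long reads, 1 pool for each of 7 stages, and short reads of 14 libraries, 2 a stage. Sperm came from the epididymis of DBA/2J males. Oocytes came from C57BL/6J females of 3 to 5 weeks that were superovulated with 7.5 IU each of PMSG and hCG, given 48 h apart, and embryos from such females mated with DBA/2J males. Collection was at 20 h after hCG. The study names the oocytes as MII oocytes. The embryos were grown in KSOM medium to the 1-cell (24 to 26 h after hCG), 2-cell (46 to 48 h), 4-cell (54 to 58 h), 8-cell (68 to 70 h) and blastocyst (94 to 96 h) stages. The males are given as DBA/2J in the sample labels and as DBA/2N in the collection protocol. Each library is a pool of many cells or embryos of 1 batch, amplified by Smart-seq2. Values are in TPM, a length-corrected share of a library that does not keep how many reads stood behind a value. The study lists the total sequences of each library, fewer in replicate 1 than in replicate 2 at the 1-cell and 2-cell stages. In bulk libraries fewer cells of a kind and less RNA per cell cannot be told apart. Where a pair of values is given for a stage, replicate 1 comes first.

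Alpha- and beta-tubulin join into the dimer from which microtubules are built, and every cell needs both. Mammals encode each of them in several genes, called isotypes, whose proteins are nearly alike in the body of the molecule and differ mostly in the acidic tail at the carboxyl end, where many of the modifying enzymes and motor proteins act. In the oocyte and the cleaving embryo of the mouse the microtubules of the meiotic and first mitotic spindles form without centrioles, and cilia and flagella, which sperm carry, are built on microtubules as well. Cells also hold the amount of tubulin mRNA in check: free tubulin triggers the decay of tubulin mRNAs as they are translated.

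The ends of the coding sequences are shown because isotypes are told apart there. The last 30 bases of the coding part of 8 of the 10 genes, read from the GENCODE vM21 transcript sequences on mm10, are given 5′ to 3′ with the last codon before the stop in capitals.
Tuba1b (chr15:98931582-98931611, minus strand): gagggggaggaagaaggagaggagTACtaa
Tuba1c (chr15:99037980-99038009, plus strand): gaaggagacgatgagggtgaggaaTATtaa
Tuba3a (chr6:125278358-125278387, minus strand): gcagaggcagaagaaggggaggagTACtga
Tuba3b (chr6:145621358-145621387, plus strand): gcagaggcagaagaaggggaggagTACtga
Tuba4a (chr1:75215622-75215651, minus strand): tatgaggacgaggatgagggagaaGAGtag
Tubb4b (chr2:25222308-25222337, minus strand): gaggaggaggctgaggaggaggtgGCTtag
Tubb5 (chr17:35834982-35835011, minus strand): ttcggagaggaggcagaagaggagGCCtaa
Tubb2a (chr13:34074468-34074497, minus strand): gaggaggaggagggtgaagatgagGCTtga
All 8 stretches lie in the last coding exon. In 4 of the 5 alpha genes shown the last codon is TAC or TAT, which stand for tyrosine, the residue that tubulin ligases and carboxypeptidases add to and take from the alpha tail. Tuba4a ends in GAG instead, and the 3 beta genes shown end in GCT or GCC. Tuba3a and Tuba3b, which lie far apart on chromosome 6, have the same 30 bases.

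The likeness of the genes bears on their values, because a short read that fits several transcripts is divided among them by an estimate. Over the whole coding part Tuba1a and Tuba1b were identical at 98.3% of aligned bases, Tuba1b and Tuba1c at 97.9%, and Tuba3a and Tuba3b at 97.0%. Of the 31-base words in the annotated transcript, another gene also held 77.0% for Tuba1a, 75.4% for Tuba1b and 63.9% for Tuba1c. The shares were 48.4% for Tuba3a and 42.9% for Tuba3b, mostly with each other, and 56.4% for Tubb2a, mostly with Tubb2b. Tubb4b shared 64.6% of its words, mostly with the processed pseudogene Tubb4b-ps1 (54.5%), whereas only 0.319% of its words were shared with genes that have a merged transcript. Tuba4a, Tubb5 and Tubb6 shared 3.77%, 4.43% and 3.94%. Counting only genes with a merged transcript, the shares were 59.4% for Tuba1a, 69.5% for Tuba1b, 62.1% for Tuba1c, 46.0% for Tuba3a, 38.6% for Tuba3b and 51.1% for Tubb2a. Values of these 6 genes are therefore uncertain as to how much belongs to which gene. Those of Tuba4a, Tubb5 and Tubb6 are much less so. Tubb4b-ps1 has no merged transcript, so reads were not divided between it and Tubb4b. Its part in the Tubb4b values was not tested. The transcripts assigned to Tuba1a and Tuba1b also overlap the exons of an annotated gene on the same strand, Gm49450.

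**Figure D1:**
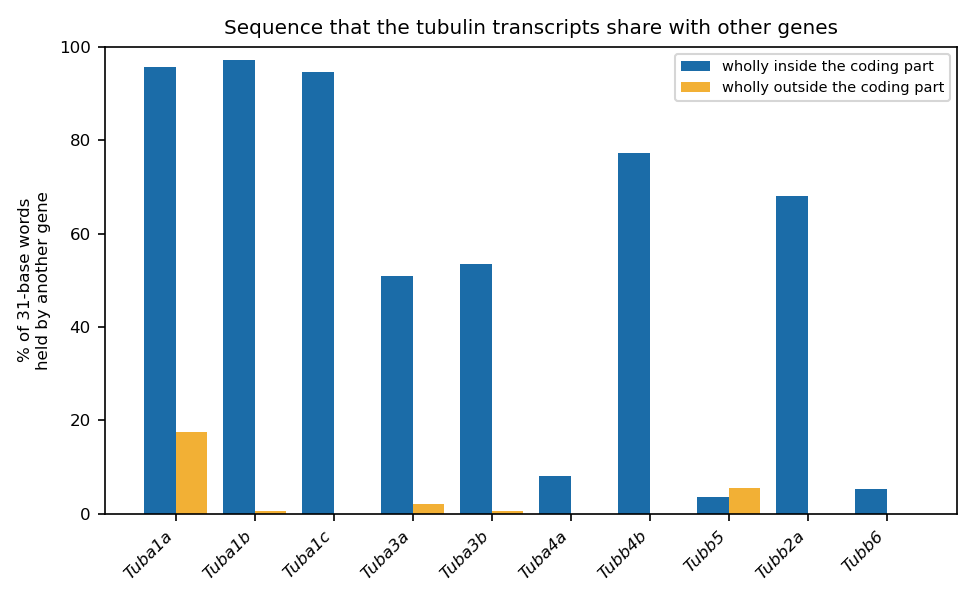
Share (%) of the 31-base words of each annotated tubulin transcript that another gene also holds, for words wholly inside (blue) and wholly outside (yellow) the coding part. Over 90% of the coding words of Tuba1a, Tuba1b and Tuba1c are shared, and Tuba4a, Tubb5 and Tubb6 share the smallest parts.

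Promoters are shown for 2 genes whose values went down together between the oocyte and the blastocyst, Tuba3a and Tuba3b, and for the 2 with the greatest rise, Tuba1b and Tubb5. Each runs from 250 bases before to 50 bases after the RefSeq start, on GRCm38.p6, 5′ to 3′ along the gene. Capitals mark the motifs CCAAT and TATAAA and the motif GGGCGG, searched on both strands, so that a match on the other strand is printed as its reverse complement. No matches overlapped in these 4 windows.
Tuba3a (chr6:125286032-125286331, minus strand): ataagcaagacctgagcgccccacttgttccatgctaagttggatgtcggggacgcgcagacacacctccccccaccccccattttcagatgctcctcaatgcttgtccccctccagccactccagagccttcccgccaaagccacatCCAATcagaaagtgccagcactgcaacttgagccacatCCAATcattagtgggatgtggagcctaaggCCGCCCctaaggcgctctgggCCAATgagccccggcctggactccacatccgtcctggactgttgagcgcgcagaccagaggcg
Tuba3b (chr6:145615713-145616012, plus strand): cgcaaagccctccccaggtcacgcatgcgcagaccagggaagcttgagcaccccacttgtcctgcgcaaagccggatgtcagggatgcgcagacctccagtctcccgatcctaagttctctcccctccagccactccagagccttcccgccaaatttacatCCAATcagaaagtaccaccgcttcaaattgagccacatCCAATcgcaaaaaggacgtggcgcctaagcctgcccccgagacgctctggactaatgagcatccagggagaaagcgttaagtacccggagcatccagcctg
Tuba1b (chr15:98934341-98934640, minus strand): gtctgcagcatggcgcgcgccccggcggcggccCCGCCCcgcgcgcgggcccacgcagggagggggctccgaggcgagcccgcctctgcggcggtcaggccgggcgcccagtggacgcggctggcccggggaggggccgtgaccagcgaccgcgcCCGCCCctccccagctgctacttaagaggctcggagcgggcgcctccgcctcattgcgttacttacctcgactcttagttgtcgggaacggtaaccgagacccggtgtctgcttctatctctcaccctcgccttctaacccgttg
Tubb5 (chr17:35838252-35838551, minus strand): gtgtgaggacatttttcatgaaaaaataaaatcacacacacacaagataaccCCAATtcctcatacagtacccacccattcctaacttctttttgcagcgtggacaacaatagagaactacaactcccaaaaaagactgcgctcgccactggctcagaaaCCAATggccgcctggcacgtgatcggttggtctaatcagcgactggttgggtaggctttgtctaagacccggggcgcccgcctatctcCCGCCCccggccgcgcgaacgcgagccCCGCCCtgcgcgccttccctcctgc
CCAAT was found 3 times in the window of Tuba3a, 2 times in that of Tuba3b, 2 times in that of Tubb5 and not in that of Tuba1b. GGGCGG was found once in the Tuba3a window, 2 times in those of Tuba1b and Tubb5 and not in that of Tuba3b, and TATAAA in none of these 4. Over the 9 tubulin genes with a promoter entry, 6 held CCAAT, 7 GGGCGG and 2 TATAAA (Tubb4b and Tubb2a), and of 32851 promoter windows 37.4%, 35.7% and 13.6% did. G and C made up 72.7% of the Tuba1b window, 59.7% of Tuba3a, 57.7% of Tuba3b and 55.0% of Tubb5, against a median of 52.7% over all windows. These are matches of letters and were not tested as binding sites.

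The libraries of a stage often differed strongly. Over all genes the median SD between replicates on the log2 scale ran from 0.176 at the 4-cell stage to 0.977 at the 2-cell stage, and it was 0.823 in sperm. Of the 70 pairs of a tubulin gene and a stage, 34 differed by more than 2-fold between replicates, 0 of 10 at the 4-cell stage and 7 of 10 in the oocyte and again in the 1-cell embryo. All 10 genes were higher in replicate 2 of the 2-cell stage than in replicate 1. Marker genes fixed for sperm, oocyte, 2-cell embryo and blastocyst had their highest sum in the stage they mark. The 7 markers of the 2-cell embryo, however, summed to 31 and 614 TPM in the 2-cell libraries. Their 1-cell sums were 47.5 and 39.8 TPM, of which Tcstv1 alone held 38.3 and 22.5 TPM. Tcstv1 was at 3.63 TPM in replicate 1 of the 2-cell stage. In that library Zscan4c, Zscan4d, Zscan4f, Usp17lc and Tcstv3 exceeded their 1-cell values. Zfp352, at 4.17 TPM there, lay between its 1-cell values of 2.19 and 11.1 TPM. The sperm libraries also held 3696 and 561 TPM of 4 epididymal epithelium markers and 8207 and 6085 TPM of 5 blood cell markers. Of 8 markers of cumulus and granulosa cells none had a merged transcript.

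Among the alpha genes, the 3 of the Tuba1 group are the broadly used isotypes, Tuba1a being the main one of the developing nervous system. Tuba1a (chr15:98949837-98953703, minus strand) was at 20.3 and 10.9 TPM in sperm, 8.02 and 0.479 in oocytes, 1.79 and 6.12 in 1-cell, 3.46 and 33.5 in 2-cell, 5.97 and 7.54 in 4-cell and 2.46 and 7.75 in 8-cell embryos, and 23.7 and 13.4 in blastocysts. The oocyte libraries differed 16.7-fold and the 2-cell libraries 9.66-fold, and in the order of stage means 5 of 6 neighbouring stages had overlapping libraries. Tuba1b (chr15:98931425-98934565, minus strand) was at 49.8 and 15.9 TPM in sperm, 3.04 and 1.30 in oocytes, 3.60 and 6.04 in 1-cell, 16.0 and 46.0 in 2-cell, 26.5 and 37.5 in 4-cell and 26.8 and 52.7 in 8-cell embryos, and 225 and 51.4 in blastocysts. It was lowest in the oocyte, next in the 1-cell embryo, and from the 2-cell stage on every library was above both of these. Its ranges in sperm and in embryos from 2 to 8 cells overlapped, and the 2 blastocyst libraries differed 4.38-fold. Tuba1c (chr15:99029891-99038110, plus strand) was at 13.1 and 12.3 TPM in sperm, 34.4 and 19.4 in oocytes, 16.8 and 16.6 in 1-cell, 12.0 and 55.9 in 2-cell, 19.2 and 16.1 in 4-cell and 36.0 and 69.4 in 8-cell embryos, and 231 and 46.4 in blastocysts. Unlike Tuba1b it was above 10 TPM in all 14 libraries, the oocyte included.

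Tuba3a and Tuba3b encode the alpha isotype known from the testis. Tuba3a (chr6:125278274-125286042, minus strand) was at 75.4 and 16.6 TPM in sperm, 17.9 and 46.7 in oocytes, 150 and 38.7 in 1-cell, 23.9 and 27.2 in 2-cell, 17.5 and 29.1 in 4-cell and 1.79 and 1.95 in 8-cell embryos, and 4.11 and 6.69 in blastocysts. Every library up to the 4-cell stage was at 16.6 TPM or more, and the 4 libraries of the 8-cell and blastocyst stages were at 6.69 TPM or less. Tuba3b (chr6:145615757-145621479, plus strand) was at 50.2 and 12.0 TPM in sperm, 4.56 and 12.8 in oocytes, 17.0 and 6.23 in 1-cell, 10.6 and 31.1 in 2-cell, 12.3 and 9.70 in 4-cell and 0.424 and 0.0322 in 8-cell embryos, and 0.381 and 0.572 in blastocysts. It had the same break: 10 libraries at 4.56 TPM or more and 4 libraries under 1 TPM. The levels of the 2 genes followed each other over the 14 libraries with a Pearson r of 0.868 on the log2 scale, the highest of the 45 pairs of tubulin genes, and since they share much of their sequence this is a description only.

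Tuba4a (chr1:75214228-75219865, minus strand), the alpha isotype whose last codon does not stand for tyrosine, was at 8.64 and 23.5 TPM in sperm, 2.201 and 7.07 in oocytes, 12.4 and 3.56 in 1-cell, 4.66 and 39.9 in 2-cell, 17.5 and 22.3 in 4-cell and 27.3 and 51.2 in 8-cell embryos, and 58.5 and 15.3 in blastocysts. All 6 neighbouring pairs in the order of its stage means overlapped, although the lowest mean, in the oocyte, and the highest, at the 8-cell stage, were 4.63 and 39.2 TPM.

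**Figure D2:**
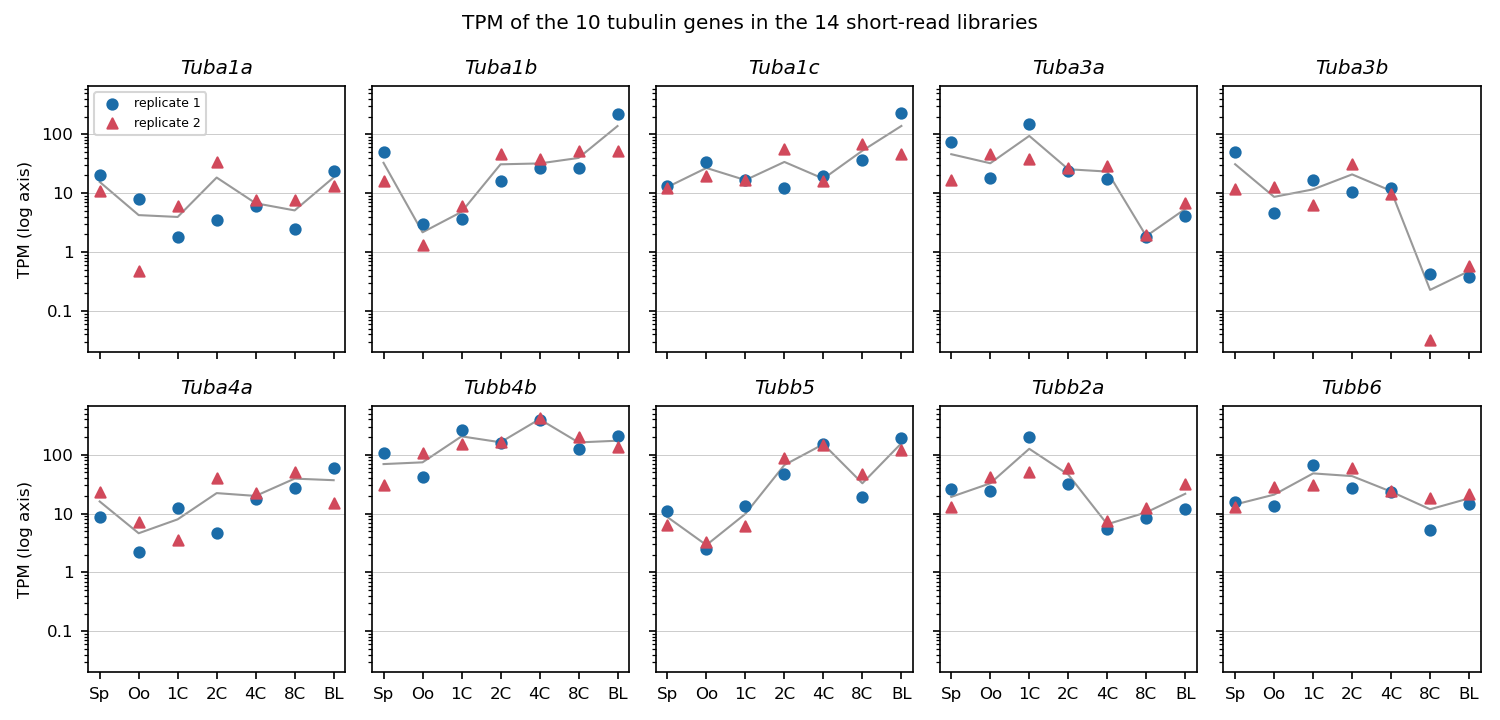
TPM (log axis) of the 10 tubulin genes in sperm (Sp), oocyte (Oo), 1-cell (1C), 2-cell (2C), 4-cell (4C), 8-cell (8C) and blastocyst (BL) libraries. Circles are replicate 1, triangles replicate 2, and the line joins stage means. Tuba3a and Tuba3b are lowest at the 8-cell and blastocyst stages, and Tuba1b and Tubb5 in the oocyte.

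Of the beta genes, Tubb4b (chr2:25222160-25224702, minus strand), a widely used isotype that is also prominent in cilia and flagella, had the highest mean of the 10 genes at every stage, although Tuba1b and Tuba1c were above it in replicate 1 of the blastocyst. It was at 108 and 30.9 TPM in sperm, 41.1 and 107 in oocytes, 258 and 151 in 1-cell, 159 and 166 in 2-cell, 390.4 and 413 in 4-cell and 123 and 201 in 8-cell embryos, and 212 and 134 in blastocysts. Both 4-cell libraries were above all other libraries of the series. Tubb5 (chr17:35833921-35838306, minus strand), the beta isotype typical of dividing cells, was at 11.1 and 6.32 TPM in sperm, 2.53 and 3.31 in oocytes, 13.7 and 6.14 in 1-cell, 46.1 and 87.5 in 2-cell, 155 and 147 in 4-cell and 18.9 and 46.5 in 8-cell embryos, and 193 and 120.2 in blastocysts. Its level was lowest in the oocyte, high at the 4-cell and blastocyst stages, and between them lower in both 8-cell libraries. Tubb2a (chr13:34074274-34078007, minus strand), abundant in brain, was at 25.7 and 12.8 TPM in sperm, 23.9 and 41.4 in oocytes, 201 and 51.2 in 1-cell, 31.8 and 60.1 in 2-cell, 5.56 and 7.62 in 4-cell and 8.36 and 12.6 in 8-cell embryos, and 11.8 and 31.6 in blastocysts. The 4-cell libraries were the lowest of the series, and the 1-cell libraries differed 3.92-fold. Tubb6 (chr18:67390717-67402749, plus strand), a more divergent beta isotype, was at 15.5 and 13.0 TPM in sperm, 13.6 and 28.4 in oocytes, 65.7 and 30.6 in 1-cell, 26.8 and 59.8 in 2-cell, 23.3 and 23.9 in 4-cell and 5.28 and 18.4 in 8-cell embryos, and 14.6 and 21.7 in blastocysts. Its range over stage means, 11.8 to 48.1 TPM, was narrow, and 5 of 6 neighbouring stages overlapped.

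The make-up of the alpha and beta pools differed between stages. Of the summed TPM of the 7 alpha genes with a merged transcript (the 6 described here and Tubal3), Tuba3a and Tuba3b together made up 57.7% and 31.2% in sperm, 26.6% and 64.6% in oocytes, 80.2% and 50.3% in 1-cell, 48.7% and 24.5% in 2-cell, 30.01% and 31.6% in 4-cell and 2.33% and 1.08% in 8-cell embryos, and 0.827% and 5.42% in blastocysts. The share of Tuba1a, Tuba1b and Tuba1c was 10.7% and 32.2% in 1-cell embryos, 52.1% and 49.8% in 4-cell embryos, 68.6% and 71.0% in 8-cell embryos and 88.4% and 83.0% in blastocysts. The leading alpha gene was Tuba3a in both 1-cell libraries, Tuba1b in both 4-cell libraries and Tuba1c in both 8-cell libraries. The 2 libraries of each of the other 4 stages had different leaders. Which of Tuba1b and Tuba1c led is uncertain, since reads that fit both were divided by an estimate. Tuba4a reached its highest share, 28.8% and 28.0%, at the 8-cell stage, where the sums of the Tuba1 group and of Tuba4a were together nearly all alpha TPM.

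Of the 6 beta genes with a merged transcript (the 4 described here, Tubb2b and Tubb3), Tubb4b led in both libraries of every stage but the oocyte. There Tubb3, the neuronal beta isotype, made up 59.7% and 73.7% of beta TPM at 123 and 515 TPM, and Tubb4b 19.9% and 15.4%. Tubb4b and Tubb5 together made up 21.1% and 15.8% in oocytes, 32.3% and 45.9% in 1-cell embryos, 94.3% and 94.0% in 4-cell embryos and 92.5% and 77.4% in blastocysts. Tubb5 alone was under 2% of beta TPM in all oocyte and 1-cell libraries and 44.1% and 36.6% in blastocysts. Beta TPM per alpha TPM, all genes of each class included, was between 0.782 and 0.860 in sperm and between 4.86 and 5.82 at the 4-cell stage. In oocytes it was 2.46 and 7.58 and in blastocysts 0.805 and 2.45, so the replicates lay far apart in both. These shares were not tested.

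**Figure D3:**
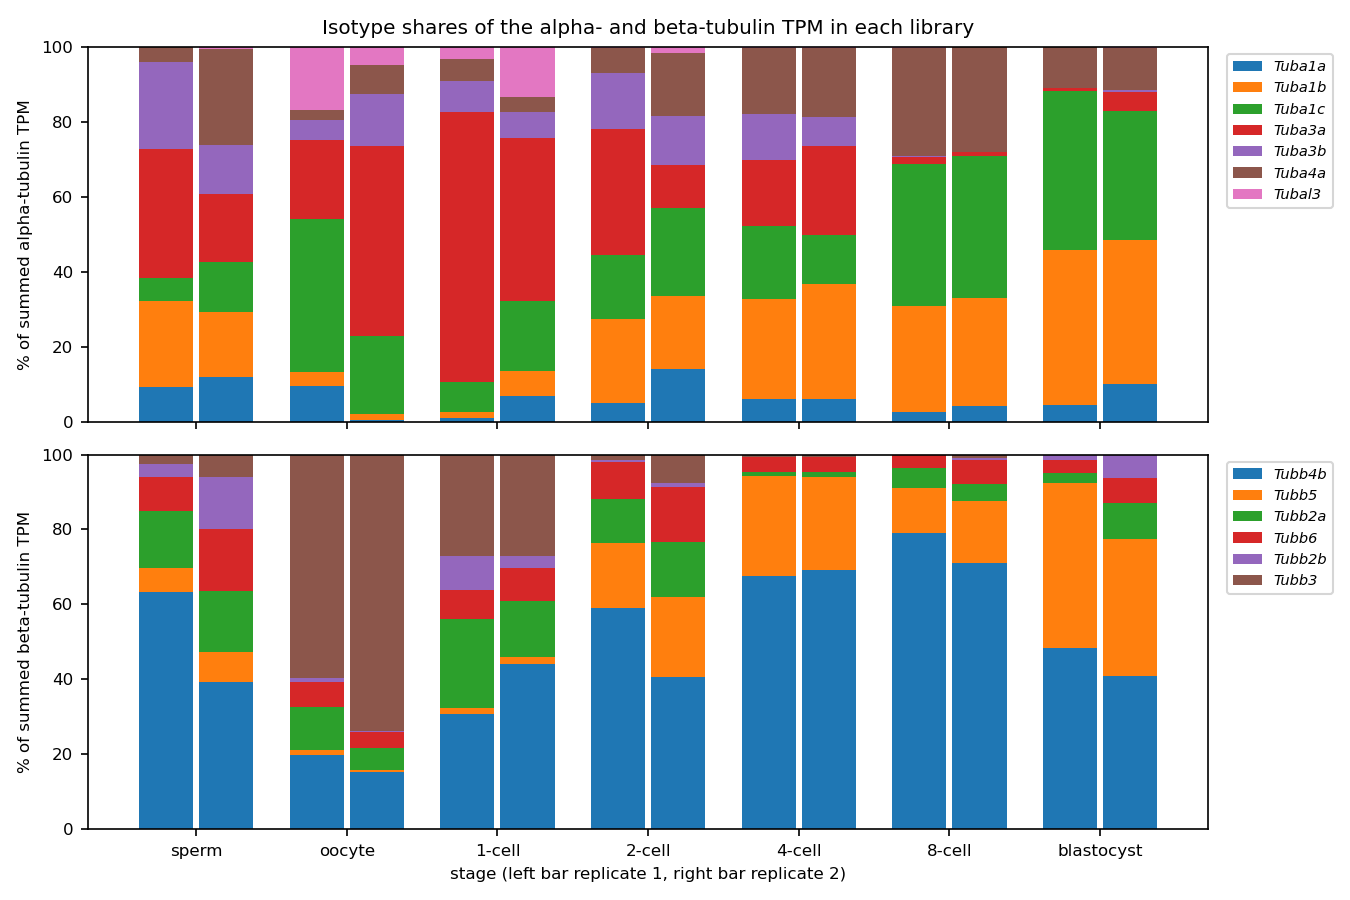
Share (%) of the summed alpha-tubulin TPM (top) and beta-tubulin TPM (bottom) held by each gene, by stage. Left bar replicate 1, right bar replicate 2. Tuba3a and Tuba3b together hold at most 5.42% of alpha TPM in the 8-cell and blastocyst libraries, and Tubb3 holds most of the beta TPM in the oocyte.

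Comparisons between stages were made with limma on log2(TPM + 1), over all genes, with p-values adjusted by Benjamini-Hochberg over the genes tested (called: adjusted p under 0.05). All 10 tubulin genes passed the filter of at least 1 TPM in at least 2 libraries. A change on this scale understates that of low genes. The median change of all genes, in the order of the comparisons that follow, was 0.23, 0.72, 0.04, -0.34, -0.14, 0.82 and 0.90. With quantile normalization these medians ran from -0.12 to 0.07. Over the 10 tubulin genes the medians were, in the same order, 1.03, 0.69, -0.36, -0.82, 0.95, 1.65 and 0.78. Changes are given as measured, and where that shift matters also relative to the median. Comparisons that share a stage are not independent of each other.

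From the oocyte to the 1-cell embryo none of the 10 genes was called by limma, and none had an unadjusted p under 0.05. Of all genes tested 0.380% were called. The mean of the log2 values was higher in 1-cell embryos for all members but Tuba1c, with log2 changes from 0.29 (SE 1.02) for Tuba1a to 1.66 (SE 0.80) for Tubb2a. The mean TPM of Tuba1a was lower, at 3.95 against 4.25 TPM. In Tuba1b, Tubb4b, Tubb5, Tubb2a and Tubb6 both 1-cell libraries were above both oocyte libraries, and in Tuba1c both were below, against 37.6% of all genes without overlap in either direction. The 95% interval of the Tubb2a change, -0.05 to 3.36, leaves room for no change and for a large one. With quantile normalization the calls over all genes went from 33 higher and 5 lower to 5 higher and 4 lower.

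From the 1-cell to the 2-cell embryo, the time of the major activation of the embryonic genome in the mouse, Tuba1b and Tubb5 rose and none of the 10 fell. Tubb5 went from 13.7 and 6.14 TPM to 46.1 and 87.5 TPM, a log2 change of 2.66 (SE 0.72, limma adjusted p = 0.0119), which is 1.94 above the median of all genes. Tuba1b went from 3.60 and 6.04 TPM to 16.0 and 46.0 TPM, a log2 change of 2.31 (SE 0.82, limma adjusted p = 0.0448), 1.59 above that median. The sum of Tuba1a, Tuba1b and Tuba1c, chosen after seeing the data, went from 22.2 and 28.8 TPM to 31.5 and 135 TPM. That sum was not called (log2 change 1.34, SE 0.88, limma adjusted p = 0.263). In Tubb5 and Tuba1b every 2-cell library lay above every 1-cell library, and in Tuba3a both lay below. For 58.0% of all genes the libraries did not overlap. Of all genes 32.3% were called, 26.1% higher and 6.20% lower, so 2 of 10 is no more than the background. The other 8 had log2 changes from -1.54 (Tuba3a, adjusted p = 0.141) to 1.48 (Tuba1a, adjusted p = 0.290). Quantile normalization, which changed the calls over all genes from 2607 higher and 620 lower to 1591 higher and 1757 lower, gave 1 tubulin gene higher and 1 lower: it left Tubb5 called (adjusted p = 0.0234), lost Tuba1b (1.44, adjusted p = 0.167) and called Tuba3a lower (-2.40, adjusted p = 0.0253). Tuba1b was also lost without either oocyte, 1-cell, 4-cell or 8-cell library or replicate 2 of the 2-cell stage (log2 changes 1.58 to 2.62, adjusted p 0.0514 to 0.189), with a replicate block (adjusted p = 0.0637) and with no filter on low values (adjusted p = 0.0583). Tubb5 was lost without replicate 2 of the 1-cell stage (2.14, adjusted p = 0.1002). Neither gene was called with the spread weighted by stage (adjusted p = 0.116 for Tubb5 and 0.193 for Tuba1b) or with the 4 libraries alone (adjusted p = 0.103 and 0.181). The 5 blood cell markers summed to 2.39 and 3.27 TPM in the 1-cell libraries and to 22.7 and 379.9 TPM in the 2-cell libraries. Of the latter sums Hba-a1 alone held 18.6 and 368 TPM. In these libraries Lyz2 was at 2.28 and 6.90 TPM and Hbb-bs at 1.64 and 1.65 TPM. Cd68 was at 0.172 and 3.47 TPM and Ptprc at 0 and 0.0278 TPM. The part of these markers in the tubulin changes was not tested.

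Between the 2-cell and the 4-cell embryo no tubulin gene was called by limma, 1 had an unadjusted p under 0.05, and 3.40% of all genes were called. That gene was Tubb2a, which went from 31.8 and 60.1 TPM to 5.56 and 7.62 TPM, a log2 change of -2.57 (SE 0.80, adjusted p = 0.0789). Its 4-cell libraries lay below its 2-cell libraries, as those of Tubb6 did, and the 4-cell libraries of Tubb4b and Tubb5 lay above, against 52.8% of all genes without overlap. With quantile normalization, which changed the calls over all genes from 158 higher and 182 lower to 610 higher and 466 lower, Tubb2a was called (-3.01, adjusted p = 0.0326), as it was without replicate 1 of the 2-cell stage (-3.02, adjusted p = 0.0357).

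From the 4-cell to the 8-cell embryo Tuba3b fell and no other tubulin gene was called. It went from 12.3 and 9.70 TPM to 0.424 and 0.0322 TPM, a log2 change of -3.30 (SE 0.73, limma adjusted p = 0.0368). The near-identical Tuba3a went from 17.5 and 29.1 TPM to 1.79 and 1.95 TPM (-3.04, SE 0.77, adjusted p = 0.0643). As the split of reads between the 2 genes is an estimate, their sum was also fitted, an alternative chosen after seeing the data: 29.8 and 38.8 TPM at the 4-cell stage and 2.22 and 1.98 TPM at the 8-cell stage, a log2 change of -3.50 (SE 0.77, adjusted p = 0.0365). Tubb5 was at 155 and 147 TPM and then at 18.9 and 46.5 TPM (-2.30, SE 0.72, adjusted p = 0.126). Of all genes 1.67% were called, 0.770% higher and 0.900% lower. Both 8-cell libraries were below both 4-cell libraries in Tuba3a, Tuba3b, Tubb4b, Tubb5 and Tubb6 and above them in Tuba1c, Tuba4a and Tubb2a, 8 of 10 genes, where 70.3% of all genes did not overlap. The call of Tuba3b remained without either 2-cell library (adjusted p 0.00394 and 0.00406) and was lost without any other single library of the fit (adjusted p 0.0511 to 0.416, log2 changes -3.06 to -3.53), and with a replicate block (adjusted p = 0.0694). Quantile normalization changed the calls over all genes from 77 higher and 90 lower to 181 higher and 80 lower and left Tuba3b called (-2.54, adjusted p = 0.0317). A fit of the 4 libraries alone called 5 members and a fit with the spread weighted by stage 6, Tuba3a, Tuba3b, Tubb4b and Tubb5 lower and Tuba1c higher in both, and Tubb6 lower in the latter.

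No tubulin gene was called by limma between the 8-cell embryo and the blastocyst, where 3.00% of all genes were, and 1 had an unadjusted p under 0.05. This was Tubb5, which went from 18.9 and 46.5 TPM to 193 and 120.2 TPM (2.32, SE 0.72, adjusted p = 0.106). Blastocyst libraries lay above 8-cell libraries in Tuba1a, Tuba3a and Tubb5 and below them in none of the 10, against 47.8% of all genes without overlap. Quantile normalization called Tubb5 (2.41, adjusted p = 0.0483), as did fits without either 2-cell library (adjusted p 0.0456 and 0.0452). Tuba1b and Tuba1c had higher blastocyst means, but replicate 2 of the blastocyst, at 51.4 and 46.4 TPM, was within the range of the 8-cell libraries of each.

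Over the whole way from oocyte to blastocyst 3 tubulin genes rose and 2 fell, 5 of 10, where 53.4% of all genes were called, 35.4% higher and 18.0% lower. Tubb5 rose from 2.53 and 3.31 TPM to 193 and 120.2 TPM, 39.3-fold on the log2(TPM + 1) scale (log2 change 5.30, SE 0.72, limma adjusted p = 4.5e-05). Tuba1b rose from 3.04 and 1.30 TPM to 225 and 51.4 TPM, 35.7-fold (5.16, SE 0.82, adjusted p = 0.00017). Both were called in all 20 alternatives, with log2 changes from 4.10 to 5.67 and from 3.94 to 6.21, the highest for Tuba1b being without replicate 2 of the blastocyst. Tuba4a rose from 2.201 and 7.07 TPM to 58.5 and 15.3 TPM, 6.12-fold (2.61, SE 0.98, adjusted p = 0.0360).

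In the other direction, Tuba3b fell from 4.56 and 12.8 TPM in oocytes to 0.381 and 0.572 TPM in blastocysts (-2.57, SE 0.73, limma adjusted p = 0.0086), and Tuba3a from 17.9 and 46.7 TPM to 4.11 and 6.69 TPM (-2.26, SE 0.77, adjusted p = 0.0231). The sum of the 2 changed by -2.48 (SE 0.77, adjusted p = 0.0142), and that of Tuba1a, Tuba1b and Tuba1c by 2.86 (SE 0.88, adjusted p = 0.0132), from 45.4 and 21.1 TPM to 480.1 and 111 TPM. The alpha isotypes thus moved in opposite directions, and relative to the median of all genes the changes were 4.34 for Tuba1b, 1.80 for Tuba4a, -3.07 for Tuba3a and -3.39 for Tuba3b. The 5 members not called were Tuba1a (2.37, adjusted p = 0.0638), Tuba1c (1.97, adjusted p = 0.0723), Tubb4b (1.33, adjusted p = 0.139), Tubb2a (-0.67, adjusted p = 0.493) and Tubb6 (-0.14, adjusted p = 0.896). In Tubb6 the 95% interval was -1.79 to 1.52, and in Tubb4b -0.23 to 2.89. The libraries of the 2 stages did not overlap in 8 of 10 genes, and in 75.3% of all genes.

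Quantile normalization changed the calls over all genes from 3543 higher and 1798 lower to 2659 higher and 2637 lower, and those of the tubulins from 3 higher and 2 lower to 2 higher and 2 lower, Tuba4a being lost (1.61, adjusted p = 0.132). The call of Tuba4a was also lost without replicate 1 of the oocyte (1.95, adjusted p = 0.215) or of the blastocyst (1.68, adjusted p = 0.270), and with no filter on low values (adjusted p = 0.0603). Tuba3a was lost without replicate 2 of the oocyte (-1.59, adjusted p = 0.173) or replicate 1 of the blastocyst (-1.96, adjusted p = 0.113), and Tuba3b without replicate 2 of the oocyte (-1.92, adjusted p = 0.090). Without either 2-cell library Tuba1a and Tuba1c were called too (adjusted p 0.0178 to 0.0340). Tuba1a was also called without replicate 1 of the oocyte (3.67, adjusted p = 0.0232), and Tuba1c without replicate 2 of the blastocyst (3.11, adjusted p = 0.0195).

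**Figure D4:**
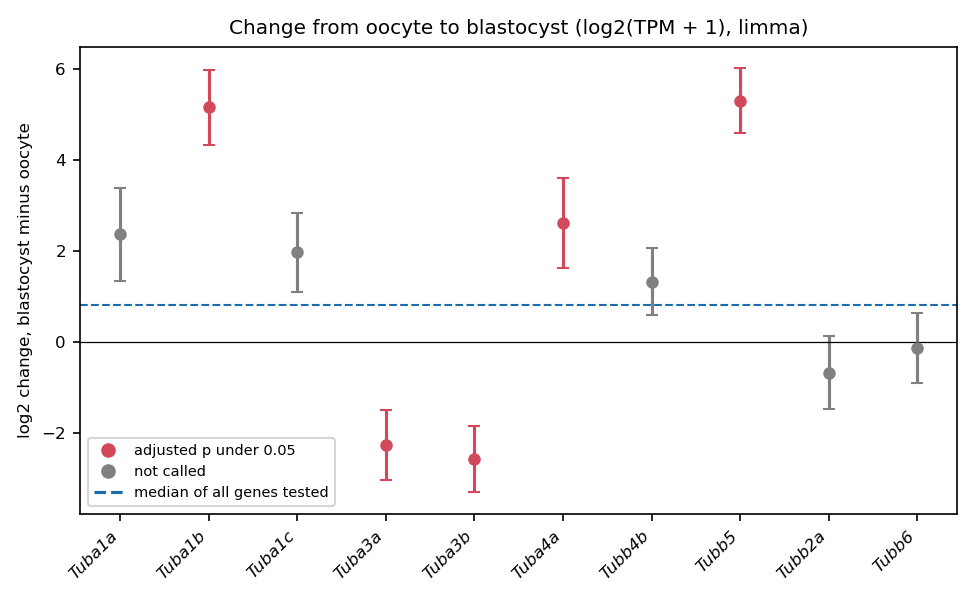
Change of each tubulin gene from oocyte to blastocyst on the log2(TPM + 1) scale, with its standard error (2 libraries a stage). Red points have a limma adjusted p under 0.05, and the dashed line is the median of all genes tested, 0.82. Tuba1b and Tubb5 lie above 5, Tuba3a and Tuba3b below -2.

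In sperm against oocytes Tuba1b was higher and no other member was called, where 53.6% of all genes were, 36.2% higher and 17.4% lower. Quantile normalization changed these calls from 3890 higher and 1863 lower to 2854 higher and 2873 lower. Tuba1b was at 49.8 and 15.9 TPM in sperm and 3.04 and 1.30 TPM in oocytes (log2 change 3.27, SE 0.87, limma adjusted p = 0.0047). Both sperm libraries were above both oocyte libraries in Tuba1a, Tuba1b, Tuba4a and Tubb5 and below them in Tuba1c, against 75.7% of all genes without overlap. Without replicate 1 of sperm the change of Tuba1b was 2.47 (adjusted p = 0.0618). The sum of Tuba1a, Tuba1b and Tuba1c was 83.2 and 39.1 TPM in sperm and 45.4 and 21.1 TPM in oocytes (0.86, adjusted p = 0.436), and the sum was not called. Tuba3a and Tuba3b were at 75.4 and 50.2 TPM in replicate 1 of sperm and at 16.6 and 12.0 TPM in replicate 2, with log2 changes of 0.29 (adjusted p = 0.799) and 1.56 (adjusted p = 0.123). Since the sperm libraries held epididymal and blood cell markers at the levels given above, their part in these tubulin values was not tested.

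The 10 genes had 12 merged transcripts: 1 for each of 8 genes, and 2 each for Tuba1b and Tuba4a. All genes but Tuba3b had a merged transcript with the complete annotated intron chain. For Tuba3b the only one was contained in the annotated transcript and began 2557 bases downstream of its start. At the level of transcripts, where 43.0% of all were called from oocyte to blastocyst, 5 of the 12 were: the main transcripts of Tuba1b and Tubb5 and the minor one of Tuba4a higher, and those of Tuba3a and Tuba3b lower. The Tubb5 transcript alone was called between the 1-cell and 2-cell stages (28.0% of all), and that of Tuba3b alone between the 4-cell and 8-cell stages (3.13% of all). In sperm against oocytes, with 45.8% of all called, the main Tuba1b and the minor Tuba4a transcripts were higher. None of the 12 was called at the oocyte to 1-cell step (2.00% of all, and 0 of the 12 with an unadjusted p under 0.05), the 2-cell to 4-cell step (2.63%, 1 of the 12) or the 8-cell to blastocyst step (2.11%, 1 of the 12), by limma. Quantile normalization changed the calls over all transcripts from 4630 higher and 1034 lower to 2620 and 3041 at the 1-cell to 2-cell step, from 138 and 495 to 419 and 465 at the 4-cell to 8-cell step, from 5399 and 3309 to 4719 and 4777 for oocyte to blastocyst, and from 6326 and 3555 to 5289 and 5211 for sperm against oocyte.

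The second Tuba4a transcript shared an intron with an annotated transcript but not its whole chain, and began at position 75218520 of chromosome 1, against 75219276 for the main one. It was at 3.30 and 22.0 TPM in sperm, where it made up 38.2% and 93.5% of the gene, and listed at 0 in both oocyte libraries, 0 and 0.969 TPM in 1-cell, 0 and 2.27 in 2-cell, 0.596 and 0 in 4-cell and 0.543 and 0.788 in 8-cell embryos, and 3.54 and 1.20 in blastocysts. In every embryo library it held at most 27.2% of the gene. In the long-read pools an isoform with this start was found at the 2-cell stage alone. The sperm pool held only a Tuba4a transcript with the full annotated chain, which began at position 75219253. Of all transcript shares 30.8% were called between sperm and oocytes. The log2 ratio of the second to the main Tuba4a transcript was 3.66 higher in sperm (SE 1.22, limma adjusted p = 0.0431). The call was lost with a fit of the 4 libraries alone, with a replicate block, with the spread weighted by stage and without either library of the oocyte, 4-cell, 8-cell or blastocyst stage. For Tuba1b the minor transcript began at position 98933910 of chromosome 15, against 98934450 for the main one, and was at most at 4.37 TPM, in replicate 2 of sperm. Its ratio to the main one fell by 4.31 from oocyte to blastocyst (SE 0.72, limma adjusted p = 0.0022, 29.4% of all shares called). As it was at 0 and 0.111 TPM in the oocyte and at 1.83 and 0.324 TPM in the blastocyst, the ratio depends on the pseudocount, and with a pseudocount of 0.1 it was not called. It was also lost without replicate 2 of the 2-cell stage or replicate 1 of the blastocyst. No tubulin share was called in the other 5 comparisons, where 0.135%, 15.7%, 0.211%, 0.307% and 0.211% of all were, in the order of stages, nor did any have an unadjusted p under 0.05 in limma.

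In the long-read pools the tubulin genes had 55 transcripts, of which 41 had the full annotated intron chain, 12 were contained in an annotated transcript, and 2 were isoforms sharing an intron. The sperm pool held a transcript of all 10 genes and the oocyte pool of 4 (Tuba1c, Tuba3a, Tubb4b and Tubb2a), only that of Tuba3a with the full chain. Tubb4b was found in all 7 pools, with a full chain in 6, and Tuba3b in sperm alone. Tubb5 and Tuba1b had no transcript in the oocyte and 1-cell pools and a full chain in sperm and in each of the 4 pools from the 2-cell stage on. In the oocyte and 1-cell libraries the short-read levels of both were at 13.7 TPM or less. Tubb5 was at 11.1 and 6.32 TPM in sperm, whose pool held a full chain of it. Tubb6 was at 13.6 and 28.4 TPM in oocytes, whose pool held no transcript of it. The study lists unequal numbers of long reads for the pools, with more for the oocyte pool than for the 2-cell and 4-cell pools. The 2-cell and 4-cell pools held transcripts of 8 tubulin genes each. The reasons for absence were not tested. Each stage had 1 pool, made from both batches, so presence in a pool has no replicate.

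**Figure D5:**
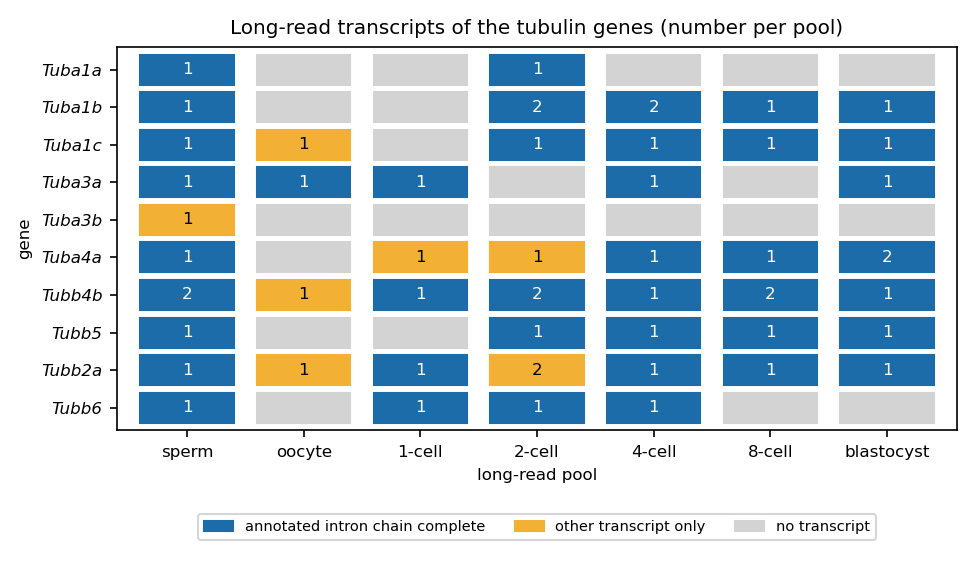
Number of long-read transcripts of each tubulin gene in the 7 stage pools. Blue cells hold at least 1 transcript with the complete annotated intron chain, yellow cells only other transcripts, grey cells none. Tubb4b is present in all pools, and the oocyte pool has the fewest genes.

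Ends of the transcripts were alike between pools. The 3′ ends of a gene lay within 24 bases of each other, whatever the stage, with Tubb6 the widest and Tuba1a at 1 base. Compared with the annotated transcript of the same intron chain, the Tubb5 transcript stopped 880 bases and the Tuba4a transcript 1308 bases short of the annotated 3′ end, while the other 8 genes ended within 21 bases of it. Tuba1c had the same start in all 5 pools with a full chain, 430 bases downstream of the annotated one. For the 7 other genes with a full chain other than Tuba1b, the start of the merged transcript was within 61 bases of the annotated one, and for Tuba1b within 115 bases.

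The authors also quantified each library over the transcripts of its own stage. In 48 pairs of gene and stage with such values, the ratio of that mean to the mean over merged transcripts ranged from 0.659 to 3.23, with a median of 0.945, and in 10 it moved by more than 1 SD of the replicates. Tuba1c in oocytes, where the pool held only a single-exon piece of 695 bases, was at 89.0 and 42.6 TPM instead of 34.4 and 19.4 TPM. Tubb4b in oocytes, with a piece of 611 bases, was at 66.4 and 199 TPM instead of 41.1 and 107 TPM. Tuba4a in 1-cell embryos, with 312 bases, was at 37.7 and 13.8 TPM instead of 12.4 and 3.56 TPM. Tuba1b at the 2-cell stage and in blastocysts, with full chains, was at 15.7 and 43.6 TPM and at 201 and 51.3 TPM, near the values over merged transcripts.

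Other genes on which tubulin depends were counted from lists. The median log2 change at the 1-cell to 2-cell step was -1.98 for other tubulins, 0.93 for folding cofactors, 0.03 for prefoldin, 0.83 for the gamma-tubulin ring complex, 0.63 for modifying enzymes, 0.31 for autoregulation and 0.17 for microtubule-binding and severing genes, against 0.72 for all genes. From the 1-cell to the 2-cell stage, where 32.3% of all genes were called, 2 of 6 folding cofactors, which assemble the dimer, rose and none fell: Tbcc (28.4 and 60.1 TPM to 2151 and 107 TPM, log2 change 3.51, adjusted p = 0.0303) and Tbcb (49.3 and 10.8 TPM to 91.3 and 257 TPM, 2.66, adjusted p = 0.0212). Of the 6 prefoldin subunits, which hand new tubulin chains to the chaperonin, Pfdn6 rose (4.39) and Pfdn4 fell (-4.35). Of 8 genes of the gamma-tubulin ring complex, which seeds microtubules, Tubgcp2 rose (2.94) and Nedd1 fell (-2.95), and 6 were not called.

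From the 1-cell to the 2-cell stage 26.1% of all genes were called higher and 6.20% lower. Of 11 tubulin-modifying enzymes 3 rose and none fell. Among the rises was Ttl, the ligase that adds tyrosine to the alpha tail. It went from 1.77 and 0.466 TPM to 8.80 and 17.4 TPM (2.74, limma adjusted p = 0.0071). Hdac6, which removes acetyl groups from alpha-tubulin, rose too (2.61, limma adjusted p = 0.0119). In the list of tubulin mRNA autoregulation 2 of 11 rose and 2 fell, and the 4 were subunits of the CCR4-NOT deadenylase, a complex that acts on mRNAs at large: Cnot1 (3.03) and Cnot10 (2.90) higher, Cnot3 (-3.17) and Cnot7 (-2.25) lower. Of 18 microtubule-binding and severing genes 4 rose and none fell, with Stmn3 (5.41) and Map1lc3a (4.23) first. Stmn3 went from 0.501 and 4.22 TPM to 250 and 55.3 TPM. Map1lc3a went from 40.9 and 50.0 TPM to 3586 and 209 TPM, so its 2-cell libraries lay far apart. The calls of the list genes come from the main fit and were not repeated under the alternative settings. Among the 7 other tubulin genes with a merged transcript 4 fell and none rose, with the largest changes in Tubb3, from 228 and 92.6 TPM to 3.64 and 30.6 TPM (-3.60, adjusted p = 0.0120), and Tubb2b, from 75.8 and 11.5 TPM to 1.59 and 4.49 TPM (-3.04, adjusted p = 0.0150). No gene of these 7 lists was called by limma from the 8-cell stage to the blastocyst, where 3.00% of all genes were called. From oocyte to blastocyst 3 of 6 folding cofactors rose, 5 of 11 modifying enzymes rose and 3 fell, and 4 of the 7 other tubulins fell, with 53.4% of all genes called.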

How the data were processed

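Short reads of 14 libraries (7 stages, 2 pools of cells or embryos each) and long reads of 7 pools were used. The labels and the submitters' notes name GSNAP, STAR, Cufflinks and Salmon and the mm10 genome. In the study's methods, long reads were clustered, mapped with GMAP, collapsed per stage and merged, and the values the authors deposited are TPM that salmon estimated over the merged transcripts and over those of each stage. TPM hold no read depth, so no counting interval was computed. Reads that fit several transcripts were divided by that estimate. Replicates are separate batches of pooled material, and p-values measure the spread between these.

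The 22612 merged transcripts were assigned to genes by exon overlap on the same strand with GENCODE vM21 (18333 to 10917 genes), and a gene's TPM is the sum of its transcripts. Genes, transcripts and log ratios of a transcript to the rest of its gene were tested with limma 3.58.1 (R 4.3.3, moderated with a mean trend) on log2(TPM + 1), after a filter of 1 TPM in 2 libraries. The 12 oocyte and embryo libraries were fitted together, and all 14 for sperm. P-values were adjusted by Benjamini-Hochberg over all features tested. Tables and sequences were handled in Python 3.11.15 with pandas 2.3.3 and numpy 2.4.6. The scripts were tested on simulated data that kept each stage's own spread. There the fit, which shares 1 spread over the stages, made many false calls at the 1-cell to 2-cell step. It missed most of the smaller changes at that step and from oocyte to blastocyst. At the 4-cell to 8-cell step it missed all of the smaller changes.

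The 10 tubulin genes and all lists were chosen with earlier results of these data known. All 10 are named in every library. Transcripts are named that hold at least 10% of their gene's TPM or were called in a share test, and of each list the 2 greatest called rises and falls at the 1-cell to 2-cell and 8-cell to blastocyst steps. Replicate numbers of the 8-cell libraries follow the sample titles. Same-numbered libraries were not paired by the labels. Alternatives were another pseudocount, no filter, quantile normalization, the 4 libraries compared alone, a replicate block, weights by stage, a stricter assignment and each library left out. The coding ends of 2 genes are not reported here.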

Additional observations from a re-analysis of the deposited data

How the results depend on the processing

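Each value below is the number of tubulin genes, transcripts or transcript shares called under another setting, beside the number as reported. For genes from 1-cell to 2-cell (2 called) it was 1 without a filter, 0 with the 4 libraries alone, 0 with the spread weighted by stage, and 1 with near-identical genes summed. From 2-cell to 4-cell (0) it was 1 with quantile normalization. From 4-cell to 8-cell (1) it was 2 with a pseudocount of 0.1, 0 without a filter, 5 with the 4 libraries alone, 6 with weights and 3 without the 2-cell stage. From 8-cell to blastocyst (0) it was 1 with quantile normalization and 1 without the 2-cell stage. For sperm against oocyte (1) it was 0 with near-identical genes summed and 2 without the 2-cell stage. For transcripts from 1-cell to 2-cell (1) it was 0 with the 4 libraries alone and 0 with weights. Between 2-cell and 4-cell embryos (0) it was 1 with quantile normalization. From 4-cell to 8-cell (1) it was 2 with a pseudocount of 0.1, 0 without a filter, 5 with the 4 libraries alone, 5 with weights and 2 without the 2-cell stage, and from oocyte to blastocyst (5) it was 3 with weights. For shares from oocyte to blastocyst (2) it was 0 with a pseudocount of 0.1, 0 with the 4 libraries alone and 0 without the 2-cell stage, and for sperm against oocyte (2) it was 0 with the 4 libraries alone and 0 with weights. The share tests of a gene with 2 transcripts mirror each other. Each reported count of 2 shares is therefore 1 gene, Tuba1b from oocyte to blastocyst and Tuba4a for sperm against oocyte. The causes were not tested. Summing near-identical genes and leaving out the 2-cell stage were chosen after seeing the data.

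The replicate numbers share only a number: of 15 pairs of stages 5 had deviations correlated above 0.1, and the range was -0.55 to 0.48. With a replicate block 1 gene was called at the 1-cell to 2-cell step and 0 at the 4-cell to 8-cell step, 0 transcripts from 4-cell to 8-cell and 3 from oocyte to blastocyst, and 0 shares in sperm against oocyte.

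Leaving out 1 library at a time gave 0 to 3 genes from 1-cell to 2-cell, 0 to 1 from 2-cell to 4-cell, 0 to 3 from 4-cell to 8-cell, 0 to 1 from 8-cell to blastocyst, 3 to 7 from oocyte to blastocyst and 0 to 2 for sperm against oocyte. It gave 0 to 2 transcripts from 1-cell to 2-cell, 0 to 2 between 4-cell and 8-cell embryos, 2 to 7 from oocyte to blastocyst and 1 to 3 for sperm, and 0 to 2 shares both from oocyte to blastocyst and for sperm. Where a stage is left with 1 library, it is assumed to vary like the others. Among the changes recomputed with each library left out, which are not all pairs of gene and comparison, the sign changed in 2 that were not called, both from oocyte to blastocyst: Tubb2a ran from -1.35 to 0.00408, the latter without replicate 1 of the blastocyst, and Tubb6 from -0.64 to 0.37, with 0.37 without replicate 2 of the oocyte and 0.13 without replicate 1 of the blastocyst.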

Other observations

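Genes whose log2(TPM + 1) followed a tubulin most closely over the 14 libraries are given as a description, since stages set most of the variation. Tuba1b was followed by Atpif1, an inhibitor of mitochondrial ATP synthase, and Dstn, an actin-severing protein (Pearson r 0.961 for both). Tubb5 was followed by Cenpt, a kinetochore protein (0.955), and Cldn6, a tight junction claudin (0.944). Tuba3a was followed by Ift122, a carrier of cargo in cilia (0.925), and Kif17, a kinesin (0.898), and Tuba3b by Spata21 (0.937) and Pdk1 (0.915). For Tubb4b these were Pex19 (0.931) and Rtf2 (0.930), for Tuba4a Aasdhppt (0.915) and Rab29 (0.906), and for Tuba1c Gstp-ps (0.910) and Pcsk6 (0.908). The highest values were lower for Tuba1a (Plscr1, 0.876), Tubb2a (Necab2, 0.874) and Tubb6 (Zfp592, 0.861).

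Of the tubulins outside the alpha and beta classes, Tubg2, a gamma-tubulin, was at 278 and 387 TPM in oocytes and at 0.409 and 0.346 TPM in blastocysts. The other gamma-tubulin, Tubg1, was at 45.8 and 72.6 TPM in oocytes and at 42.8 and 36.4 TPM in blastocysts. Tube1 was at 22.9 and 51.1 TPM and then at 7.53 and 3.83 TPM, and Tubd1 at 1.83 and 0.884 TPM and then at 5.93 and 0.661 TPM. These genes are given outside the naming rule of the lists.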
